A study of Mus musculus with 6 samples.

Results

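Keratins are the intermediate filament proteins of epithelia. They assemble only as pairs of an acidic type I chain and a basic type II chain, and Krt8 with Krt18 is the founding pair of simple, single-layered epithelia, often joined by Krt7 and Krt19. Fibroblasts build their intermediate filaments mainly from vimentin, although low keratin expression is known in cultured mesenchymal cells. Described here are 5 keratin genes, the type II genes Krt7, Krt8 and Krt80 and the type I genes Krt18 and Krt19, together with Crct1, a small gene of the epidermal differentiation complex, the chromosome region that holds the genes of the cornified envelope of skin. The 6 genes were taken by symbol from a table of 25239, and they were chosen because earlier results from these libraries showed how they differ between the groups. Their differences are therefore given as descriptions without a test.

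Senescent mouse primary pulmonary fibroblasts (3 libraries) were compared with quiescent ones (3 libraries). The labels describe an induction by 16 hours of RO3306, a Cdk1 inhibitor, and 48 hours of Nutlin 3a, which separates Mdm2 from p53. BI-2536, a Plk1 inhibitor, was then given at 100 nM to remove dividing cells, for 12 days in total. The same protocol text stands on both groups, and the sources used here do not say how the other cells became quiescent. Both groups grew in DMEM with 10% FBS at 5% oxygen, and no genotype, strain, age or number of animals is given. Replicates are separate samples in the labels, with no word on separate cultures or animals. Each p-value therefore measures spread among these samples alone, and that spread may be technical.

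The libraries held 93736593 to 109706025 counts, of which 79.8% to 82.8% lay in the 3 ribosome-related rows Rn45s, Lars2 and Mir6236. The other genes held 18219831 to 21386546 counts per library. Levels are given as CPM, counts scaled to the library total after TMM adjustment, with those rows included, so that values look low, and as FPKM, the CPM per kilobase of annotated exon, wherever genes are compared with each other. Senescent replicate 3 correlated least with its own group (mean r = 0.992 across genes, against 0.993 and 0.994 for the other senescent libraries). Of 14065 tested genes, 74.5% changed, 5158 up (36.7%) and 5316 down (37.8%), in edgeR's quasi-likelihood test at an adjusted p under 0.05. Scaled by library totals alone the split was 2952 risen and 7435 fallen, and the median over all genes, on the log2 scale, was -0.32 in place of -0.02. The group ranges did not overlap for 78.3% of tested genes, with senescent libraries above for 38.4% and below for 39.9%. None of the 6 genes described here had overlapping ranges either, 3 above and 3 below, and since they were chosen on this comparison nothing is read from that count. In bulk RNA, a change in the number of expressing cells and a change in RNA per cell cannot be told apart.

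Krt8 and Krt18 stand 23.7 kb apart on chromosome 15 and are read away from each other, and they differed in opposite directions, so a stretch upstream of each is shown. Each line gives 100 bases, 5′ to 3′ on the gene's own strand, from the RefSeq promoter table of build GRCm38.p6. The Krt8 stretch is chr15:102004483-102004582 on the minus strand, and the Krt18 stretch is chr15:102028080-102028179 on the plus strand. Both lie just outside the exons that GENCODE M21 annotates for the gene.
Krt8: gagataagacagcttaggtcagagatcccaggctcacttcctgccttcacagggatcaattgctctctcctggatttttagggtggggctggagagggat
Krt18: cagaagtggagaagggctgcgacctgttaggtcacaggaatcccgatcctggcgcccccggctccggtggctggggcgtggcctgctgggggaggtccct
In the 250 bases before the RefSeq start, searched on both strands, neither Krt8 nor Krt18 held the TATA box letters TATAAA, the Sp1-type letters GGGCGG or the AP-1-type letters TGANTCA. Over 32851 RefSeq promoters of the same length, the share with TATAAA was 12.4%, with GGGCGG 32.7% and with TGANTCA 6.75%. The Krt7 promoter held GGGCGG 4 times over both strands, starting 141, 128, 56 and 24 bases before its start. These matches are a description of the letters only.

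The type I genes were higher in senescent fibroblasts. Krt19, the smallest keratin and a filament partner in ducts and simple epithelia (chromosome 11, 100140810 to 100148665), had 7.20, 5.57 and 7.02 CPM in the senescent libraries, against 0.894, 0.827 and 0.821 CPM in the quiescent libraries. The lowest senescent library lay far above the highest quiescent one. The difference was 2.96 ± 0.12 on the log2 scale (± SE), or 7.79-fold. Krt18, the type I partner of Krt8 (chromosome 15, 102028180 to 102032027), had 0.641, 0.447 and 0.632 CPM in senescent libraries, against 0.207, 0.152 and 0.236 CPM in quiescent libraries. These values rest on 64, 40 and 65 senescent counts and 22, 18 and 25 quiescent counts, and senescent replicate 2 was the lowest senescent library for both genes. For Krt18 the difference was 1.54 ± 0.23 on the log2 scale.

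The type II genes were lower in senescent fibroblasts, and all were scarce. Krt7, a type II keratin of ducts, lung and mesothelium (chromosome 15, 101411043 to 101430313), had 11, 8 and 6 counts in senescent libraries, against 46, 67 and 41 counts in quiescent libraries. As CPM this was 0.0860 ± 0.0261 in senescent and 0.462 ± 0.0925 in quiescent libraries (SD, n = 3 each), which is -2.42 ± 0.29 on the log2 scale. Krt80, a type II keratin linked to desmosomes in epithelia (chromosome 15, 101347444 to 101370162), had 0.671, 0.626 and 0.486 CPM in senescent libraries, against 1.09, 0.767 and 0.812 CPM in quiescent libraries. The gap between its groups was narrow, and its log2 difference, -0.58 ± 0.18, is the smallest of the 5 that could be fitted. Krt8, the type II partner of Krt18 (chromosome 15, 101996698 to 102004482), had 0, 4 and 4 counts in senescent libraries, against 7, 11 and 8 counts in quiescent libraries. It did not pass the filter on low counts. Its pooled rate in senescent libraries was 0.348 times that in quiescent libraries, with an exact 95% interval of 0.136 to 0.792 that covers counting error only, and 0.529 times without senescent replicate 1, the library without a count.

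GENCODE annotates transcripts of the opposite strand across Krt7, Krt8 and Krt80, and a processed pseudogene named Krt8-ps. The libraries were made with a directional kit, but the sources used here do not say whether strand was used in counting. Reads of these 3 genes and of the opposite strand cannot be told apart.

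**Figure D1:**
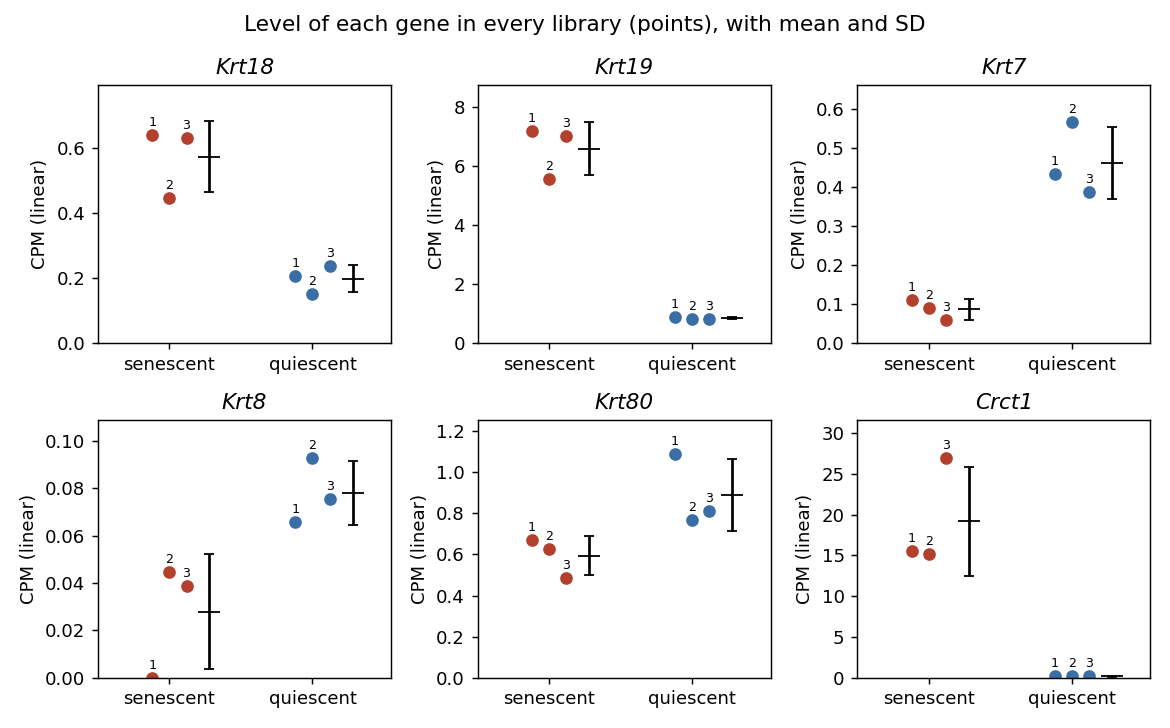
Level of the 6 genes in CPM on linear axes, 1 panel per gene, with senescent libraries left and quiescent libraries right, each point a library numbered by replicate, and the bar the mean with SD (n = 3). Krt18, Krt19 and Crct1 lie higher in the senescent libraries, and Krt7, Krt8 and Krt80 lower, with no overlap in any panel.

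Because filaments need both types, the summed levels per length were set side by side. The sums cover only the 5 keratins described here and leave out other type I genes, such as Krt10 and Krt20. Krt18 and Krt19 together reached 4.33, 3.31 and 4.22 FPKM in senescent libraries, against 0.626, 0.551 and 0.607 FPKM in quiescent libraries. Krt7, Krt8 and Krt80 together reached 0.121, 0.133 and 0.104 FPKM in senescent libraries, against 0.266, 0.248 and 0.220 FPKM in quiescent libraries. Per length, the type I sum thus exceeded the type II sum in every library, 33.8 ± 8.08 times in senescent and 2.44 ± 0.275 times in quiescent libraries (SD, n = 3 each). These sums rest on the exon lengths, 7049 bases for Krt7 and 6393 for Krt80, against 1437 for Krt18 and 1855 for Krt19. Longer lengths lower the type II sum and raise the Krt19 share, and which transcripts were expressed was not tested. On the log2 scale the ratio of type I to type II differed by 3.76 between the groups, and by 3.62 to 3.97 with any one library left out. Krt19 alone held 87.3% ± 0.168 of the summed level of the 5 keratins in senescent libraries and 54.4% ± 1.19 in quiescent libraries (SD, n = 3 each).

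**Figure D2:**
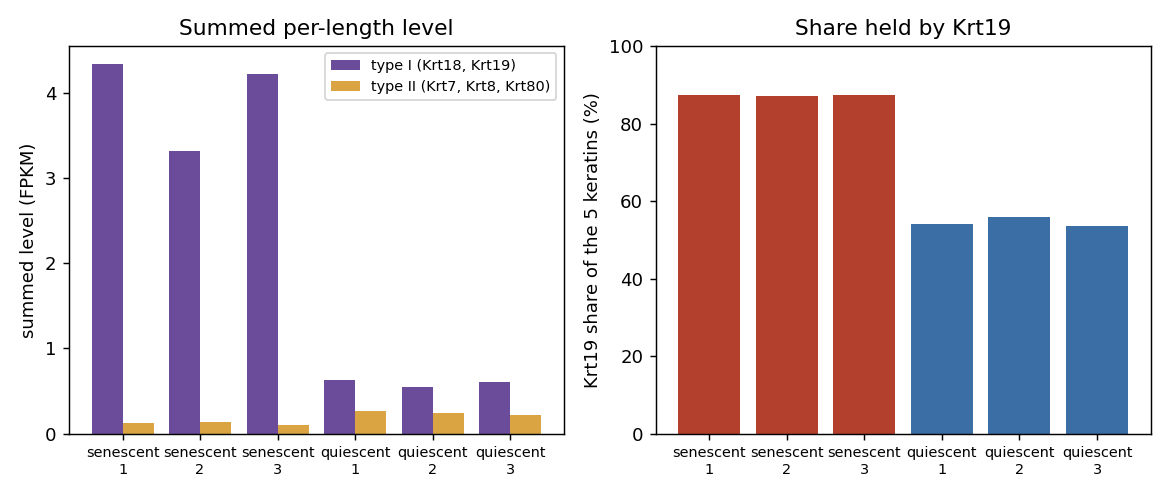
Left, summed level per length (FPKM) of the type I genes Krt18 and Krt19 and the type II genes Krt7, Krt8 and Krt80 in each library; right, the share of that sum held by Krt19 in percent. The type I bars reach 3.31 to 4.33 FPKM in senescent libraries, and 0.551 to 0.626 FPKM in quiescent libraries.

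Vim, the gene of vimentin, had 72.9 ± 4.89 FPKM in senescent and 58.3 ± 0.698 FPKM in quiescent libraries (SD, n = 3 each). The 5 keratins together came to 5.62% ± 0.929 of the vimentin level in senescent libraries and 1.44% ± 0.0789 in quiescent libraries. Ordered by level per length among 24321 genes with an annotated length, Krt19 ranked 2649 in senescent and 9295 in quiescent libraries. Krt18 ranked 9290 and Krt80 12186 in senescent libraries, against 11754 and 11743 in quiescent libraries. In quiescent libraries Krt18, with 0.138 ± 0.0297 FPKM, and Krt80, with 0.139 ± 0.0275 FPKM, lay within their spread of each other, below Krt19 and above Krt7 and Krt8. That order rests on the exon lengths. By CPM in quiescent libraries, Krt7 (0.462) lay above Krt18 (0.198), and Krt80 (0.890) lay near Krt19 (0.847). In senescent libraries Krt19 had 3.56 ± 0.483 FPKM, Krt18 0.399 ± 0.0762 and Krt80 0.0930 ± 0.0151, while Krt8 (0.0142 ± 0.0124) and Krt7 (0.0122 ± 0.00370) could not be ordered.

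Crct1 was the most different of the 6 genes. The gene encodes a small cysteine-rich protein of the cornified layer (chromosome 3, 93014205 to 93015687). It had 1551, 1354 and 2768 counts in senescent libraries, against 16, 24 and 16 counts in quiescent libraries. As CPM this was 15.5, 15.1 and 26.9 in senescent libraries, against 0.151, 0.202 and 0.151 in quiescent libraries. Senescent replicate 3 stood above the other senescent libraries, and all 3 lay far above the quiescent range. The difference was 6.82 ± 0.39 on the log2 scale, and 6.50 without senescent replicate 3. Per length Crct1 averaged 24.2 ± 8.44 FPKM in senescent libraries, rank 281 of 24321, against 0.212 ± 0.0377 FPKM in quiescent libraries, rank 10982. Its level in senescent fibroblasts thus exceeded that of each of the 5 keratins.

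Crct1 lies among genes of the cornified envelope. Of 61 listed genes of the cornified envelope and epidermal differentiation complex, 60 were in the table, 24 had no count in any library and 10 were tested. Of these 10, 9 rose and 1 fell, with a median log2 fold change of 4.77 beside -0.02 over all tested genes. The median was 4.14 with the 2 genes that had no quiescent count set at a floor of 3 counts over the quiescent group. A gene at or near 0 in one group enters the test only if it is high in the other, so the whole list is also given by rates. Of the 60 genes, 30 had a higher pooled rate in senescent libraries and 6 a lower one, and 19 of the 30 had no quiescent count at all.

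Ivl, which encodes involucrin, a scaffold protein of the cornified envelope, had 554, 460 and 646 counts in senescent libraries, against 14, 12 and 13 counts in quiescent libraries. The difference was 5.57 ± 0.15 on the log2 scale (adjusted p = 9.1e-11 in edgeR), and the groups lay far apart. Sprr1a, a small proline-rich envelope protein gene, had 245, 161 and 308 counts in senescent libraries, against 2, 2 and 4 counts in quiescent libraries, or 6.58 ± 0.34 on the log2 scale (adjusted p = 2.6e-08 in edgeR). Lce1g, a late cornified envelope gene outside the rule for named genes and chosen after its values were seen, had 84, 52 and 132 senescent counts and no quiescent count. With the floor of 3 counts over the quiescent group, it was at least 101-fold higher in senescent libraries. Tgm1, the transglutaminase that cross-links envelope proteins, went the other way, with 0.372 ± 0.108 CPM in senescent and 1.17 ± 0.213 CPM in quiescent libraries (SD, n = 3 each; -1.64 ± 0.21 on the log2 scale, adjusted p = 2.7e-05 in edgeR). Genes of the Sprr2 and Lce groups have close copies that can share reads, so the counts of single genes there are uncertain.

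Within 1000 kb of the Crct1 start the table held 57 other genes, and 29 of them had no count in any library. Of the rest, 27 had a higher pooled rate in senescent libraries, 18 of them with no quiescent count, and 1 a lower one. These rates carry no test. Of the 57 genes 10 were tested and 8 rose, all of them in the cornified list. Lce1g, Sprr2g, Sprr2h, Kprp, Sprr1a and Lor had at most 4 counts in any quiescent library and passed the filter through the senescent libraries, so the 8 of 10 is not read against all genes. Of the genes counted well in both groups, Tchh, the trichohyalin gene named after its values were seen, rose by 1.68 on the log2 scale (adjusted p = 4.9e-06 in edgeR), as did Ivl by the value above. The remaining 2, S100a10 and S100a11, which encode calcium-binding proteins expressed in many cell types, had log2 fold changes of 0.33 and 0.02 and did not pass the test. The sign of S100a11 turned under upper quartile scaling (-0.08), without quiescent replicate 3 (-0.07) or senescent replicate 1 (-0.03), and under library totals, where it passed as lower (-0.28, adjusted p = 0.038 in edgeR).

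**Figure D3:**
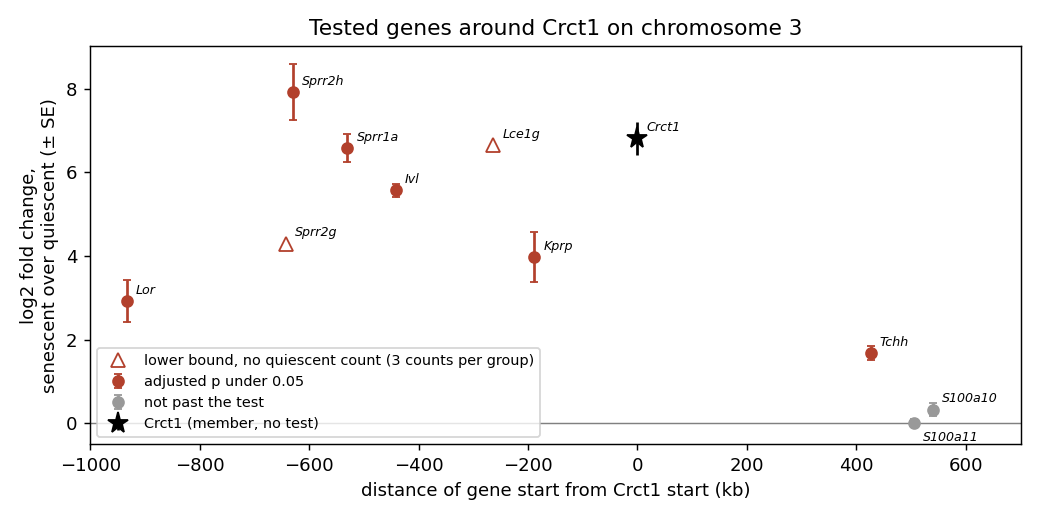
Log2 fold change of tested genes, senescent over quiescent, against the distance of their start from that of Crct1 in kb, with SE as bars. Crct1 is the star, open triangles are bounds at the floor of 3 counts for genes with no quiescent count, and S100a10 and S100a11 lie at 0.33 and 0.02. Genes at or near 0 in quiescent libraries could enter only if high in senescent ones, so their place above 0 follows from the filter.

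The 5 nearest tested genes on each side of the chromosome 15 keratins are the same 10 genes for Krt7, Krt8, Krt18 and Krt80, since no other gene between these 4 was tested. Of these, 4 rose and 6 fell, beside 36.7% and 37.8% of all tested genes, with a median log2 fold change of -0.40. Under library totals 1 rose, Nr4a1, and 6 fell, with a median of -0.70. Around Krt19, 3 of 10 rose and 4 fell, with a median of 0.08 that turned to -0.01 under upper quartile scaling and -0.22 under library totals. The fallen genes numbered 2 in DESeq2 and without quiescent replicate 2 or quiescent replicate 3, and the risen ones 2 under both of those scalings and without quiescent replicate 1 or senescent replicate 1. Nr4a1, an immediate early nuclear receptor gene that was chosen here after its values were seen, was the most changed of the chromosome 15 neighbours at 3.43 on the log2 scale (adjusted p = 2.6e-08 in edgeR).

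Most of the rest of the keratin family was nearly silent. Of 50 other keratin genes, 26 had no count in any library and 46 had at most 10 counts in every library. Krt20 and Krt10 were the only 2 of them tested, and the first rose and the second fell. Krt20, a type I keratin of gut and urothelial surface cells singled out after its values were seen, had 57, 67 and 70 counts in senescent libraries, against 0, 1 and 0 counts in quiescent libraries. Its pooled rate was 220 times higher in senescent libraries, with an exact 95% counting interval of 39.0 to 8720. Per length Krt20 averaged 0.346 FPKM there, near Krt18. It passed the filter through the senescent libraries alone, so its rise is given as a description. Krt10, the type I keratin of upper epidermal layers, had 0.590 ± 0.0383 CPM in senescent and 0.783 ± 0.0954 CPM in quiescent libraries (SD, n = 3 each; log2 fold change -0.40, adjusted p = 0.028 in edgeR). Per length Krt10 averaged 0.279 FPKM in senescent and 0.370 FPKM in quiescent libraries. In quiescent libraries this was above Krt18 (0.138) and Krt80 (0.139). The Krt10 call was lost in DESeq2 (adjusted p = 0.10) and, in edgeR, when quiescent replicate 2 (adjusted p = 0.068), quiescent replicate 3 (0.11) or senescent replicate 2 (0.077) was left out.

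Krt23, Krt14 and Krt5 were too scarce to be tested, and they too were picked after their values were seen. Krt23, a type I keratin, had 9, 11 and 7 senescent counts and no quiescent count, at least 10.2-fold higher at the floor of 3 counts over the group. Krt14, the type I keratin of basal epidermis, had 1, 0 and 0 counts in senescent libraries, against 14, 17 and 4 counts in quiescent libraries. Krt5, the type II partner of Krt14, had 1 count in each senescent library and none in the quiescent libraries, which is at the floor in both groups.

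**Figure D4:**
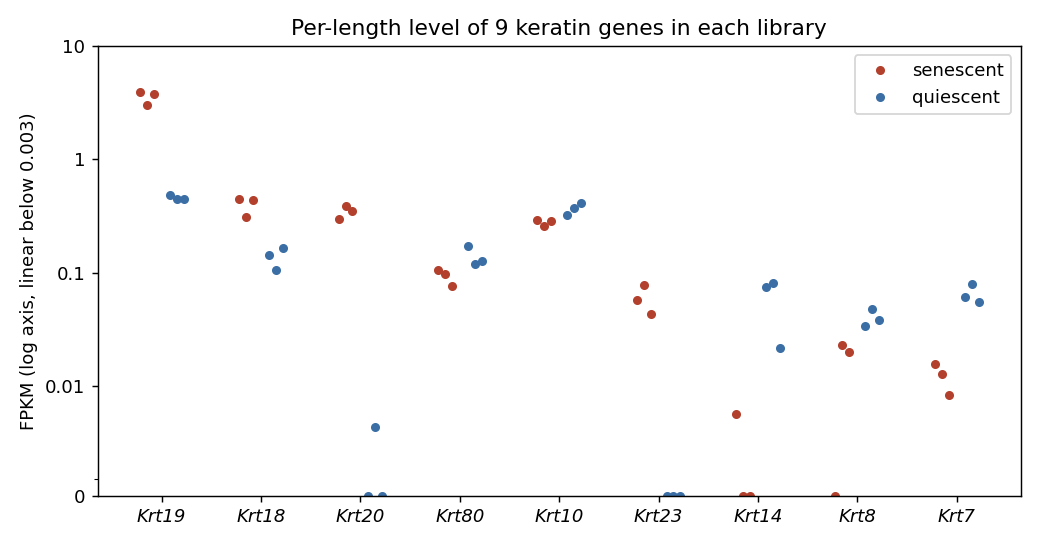
Level per length (FPKM, log axis that is linear below 0.003) of 9 keratin genes, each point a library, senescent left of quiescent for each gene. Krt19, Krt18, Krt20 and Krt23 lie higher in the senescent libraries, and Krt80, Krt10, Krt14, Krt8 and Krt7 lower.

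Of 16 non-keratin intermediate filament genes, 11 were tested, 6 rose and 3 fell, with a median log2 fold change of 0.32. Over all tested genes 36.7% rose. Nes, which encodes nestin, rose to 46.9 ± 0.290 CPM in senescent libraries, against 4.76 ± 0.442 CPM in quiescent libraries (SD, n = 3 each; log2 fold change 3.30, adjusted p = 2.0e-11 in edgeR). Nefm, which encodes a neurofilament chain, rose by 3.08 in log2 units, and the lamin genes Lmnb2 (-0.94) and Lmnb1 (-0.49) fell. Prph, also among the fallen genes and picked after its values were seen, had 2, 1 and 2 senescent counts and 17, 14 and 17 quiescent counts. It passed the filter through the quiescent libraries alone, so the 3 fallen genes are not read against all genes. Vim rose by 0.32, but did not pass when scaled by library totals (0.02, edgeR adjusted p = 0.84).

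Keratin filaments are anchored at desmosomes by linker proteins. Of 21 listed linker and desmosome genes, 14 were tested, 7 rose and 5 fell, with a median of 0.08. Dsc2, a desmosomal cadherin gene, rose by 2.18 and Perp, a desmosome membrane protein gene and p53 target, by 1.56 on the log2 scale. Jup, the plakoglobin gene, fell by 1.10 and Ppl, the periplakin gene, by 0.90. Dsp, the gene of desmoplakin, the main keratin anchor, was chosen after its values were seen. It had only 18, 15 and 17 counts in senescent libraries, against 4, 12 and 8 counts in quiescent libraries. Pkp1, another of the risen genes and picked in the same way, had 51, 34 and 83 senescent counts and 2, 0 and 2 quiescent counts. Both passed the filter through the senescent libraries, so the 7 risen genes are not read against all genes. Dst, named after its values were seen and counted among the risen genes at 0.16, turned to -0.14 under library totals and was not called under upper quartile scaling or when any of quiescent replicate 1, quiescent replicate 3 and senescent replicate 1 was left out.

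The levels of markers of cells that normally make these keratins are given beside the results. Epcam, which marks epithelial cells, had 1, 2 and 0 counts in senescent libraries and 0, 3 and 0 in quiescent libraries, and Cdh1, the E-cadherin gene, had 1, 1 and 8 counts in senescent libraries and 2, 7 and 0 in quiescent libraries. Nkx2-1, the lung epithelial regulator, had no count in any library, and Sftpc, a surfactant gene of alveolar type 2 cells, had at most 5. The 20 epithelial markers summed to 2.58 to 3.08 CPM in senescent libraries, against 3.84 to 4.32 CPM in quiescent libraries. Of the 6 tested, 2 rose and 3 fell, among them Spint2 (-1.97) and Cdh3 (-1.19). By pooled rate, which carries no test, 12 of the 20 were higher in senescent libraries and 6 lower, unlike the sum. Cldn3, a tight junction gene singled out after its values were seen, rose by 4.79. Its mean log2 CPM lay under the -2 set for named genes, so it may have entered the test through the senescent libraries alone. The 2 risen epithelial markers are therefore not read against all genes. The 20 lung epithelial markers summed to 19.2 to 21.5 CPM in senescent and 20.8 to 21.5 CPM in quiescent libraries. Of the 10 tested, 3 rose and 5 fell, beside 36.7% and 37.8% of all tested genes. Clic5 stood at 4.69, Aqp5 at 1.501, Cyp2f2 at -3.96 and Rtkn2 at -0.70.

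Mesothelial cells also make Krt7, Krt8, Krt18 and Krt19. Mesothelial markers summed to 6.43 to 8.57 CPM in senescent libraries, against 18.9 to 23.2 CPM in quiescent libraries. Of 10 tested 6 fell and 4 did not pass, where 37.8% of all tested genes fell. Rspo1 fell by 4.19, Nkain4 by 2.72 and Upk3b by 1.64 on the log2 scale. Msln, the mesothelin gene, fell by 0.67 with group ranges that overlapped, and did not pass in edgeR when quiescent replicate 1 (adjusted p = 0.056), quiescent replicate 2 (0.069) or senescent replicate 2 (0.061) was left out. Wt1, a mesothelial transcription factor gene, had 0.684 ± 0.0671 CPM in senescent and 0.622 ± 0.141 CPM in quiescent libraries (SD, n = 3 each; adjusted p = 0.52 in edgeR). The mesothelial sum was thus lower in senescent libraries, as were Krt7, Krt8 and Krt80 but not Krt18 or Krt19. The part of mesothelial, epithelial or other cells in these levels was not tested.

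Among fibroblast markers, Col1a1 had 857 ± 104 CPM in senescent and 967 ± 53.5 CPM in quiescent libraries (SD, n = 3 each). Whether all cells met the fibroblast label was not tested. Of 12 fibroblast markers, 4 rose and 7 fell, beside 36.7% and 37.8% of all tested genes. Thy1 stood at 2.72, Postn at 1.90, Col3a1 at -1.95 and Tcf21 at -1.70. Among 10 markers of smooth muscle and pericytes 8 rose and 1 fell, beside the same shares, with Cnn1 at 3.29, Tagln at 2.64 and Notch3 at -0.63. That list summed to 645 to 842 CPM in senescent and 167 to 203 CPM in quiescent libraries. Of 10 macrophage markers, 5 were tested and all 5 rose, beside 36.7% of all tested genes, with Csf1r at 2.56 and Lyz2 at 1.69. The rest did not pass the filter on low counts. A marker scarce in quiescent libraries could enter the test only if high in senescent ones, so the 5 of 5 is not weighed against that share. By pooled rate, which carries no test, all 10 were higher in senescent libraries. The macrophage list summed to 11.001 to 14.6 CPM in senescent and 3.998 to 4.27 CPM in quiescent libraries. The pan-leukocyte gene Ptprc had 9, 2 and 7 counts in senescent libraries, against 1, 0 and 2 counts in quiescent libraries. Of 6 tested endothelial markers, 1 rose and 2 fell, with Cdh5 at 2.32 and Tek at -2.67, and Pecam1 had at most 6 counts in any library.

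**Figure D5:**
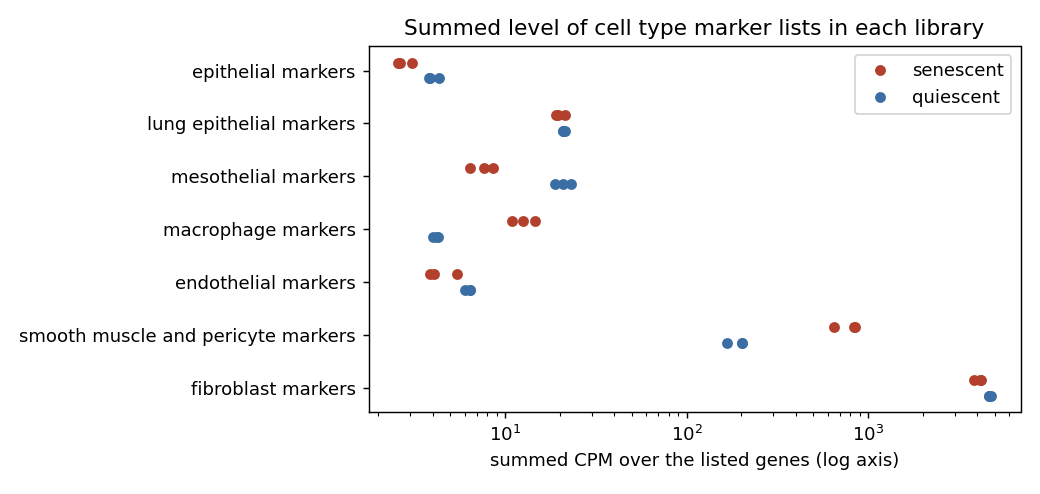
Summed CPM on a log axis of each cell type marker list, with 1 point per library, senescent libraries above quiescent ones. Mesothelial markers lie at 6.43 to 8.57 CPM in senescent libraries and at 18.9 to 23.2 CPM in quiescent ones, and fibroblast markers are the most abundant list in every library.

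The tested genes whose profile over the 6 libraries was most like that of each gene were found by the root mean square difference of log2 CPM, each profile centred on its own mean. For Crct1 these were Mmp13, a collagenase gene (difference 0.17), Sema7a (0.19) and Ptgs2 (0.22), with log2 fold changes of 6.83, 6.66 and 6.31. For Krt19 they were Ddah1 (0.09), Kcnn3 (0.11) and Gpr149 (0.12), and for Krt18 Tmem37 (0.12), Mir155hg (0.13) and Zfp612 (0.14). For Krt7 they were Mmp16 (0.13), Slc25a27 (0.14) and Parpbp (0.14), and for Krt80 Vill (0.08), Slc25a40 (0.09) and Cldn22 (0.09). For Krt8, at its low counts, Lyl1 (0.22) and Zpbp (0.27) were nearest. The measure was taken over 13234 candidates, and all profiles share the same 6 libraries in 2 groups.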

How the data were processed

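RNA of 6 libraries was sequenced after ribosomal RNA depletion, in paired reads of 100 bp, per the labels' protocols. The deposited values are raw gene counts by symbol, and the submitters' processing notes name mm10, edgeR 3.32.1 and limma 3.46.0 without a role. The sources used here name no aligner or counter. A deposited table of repeats was not used. Columns were matched to samples by title.

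All genes were fitted together with edgeR 4.0.16 (R 4.3.3), using filterByExpr at 10 counts, TMM scaling and the robust quasi-likelihood test, with p-values adjusted by Benjamini-Hochberg over every gene tested and a threshold of 0.05. Each SE is the log2 difference over the root of its F statistic. The fit was checked on simulated counts. CPM used the TMM-adjusted total. FPKM used the union of GENCODE M21 exons (GRCm38, the assembly behind mm10), with a length for 24321 of 25239 symbols. Promoters were matched by symbol for 3 of the 6 genes. Intervals and floors cover counting error only.

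The members and lists were chosen with earlier results of these data known. Named genes are the members, a fixed set of markers, up to 2 highest and 2 lowest passing genes per list at a mean log2 CPM of at least -2, and 3 look-alikes per member, of which 1 for Krt8 is not reported here; others are said to be picked later. Alternatives were DESeq2 1.42.0, limma-voom (limma 3.58.1), other scalings and filters, a replicate block and each library left out.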

Additional observations from a re-analysis of the deposited data

How the results depend on the processing

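Of 495 recomputed counts of calls and values of the 6 genes, 475 stayed within the spread or within 1.5 times the count, and none of these changed direction. Single genes did: under library totals Dst turned to -0.14, Fkbp10 to -0.15 and Dcn to -0.12, all counted as risen and no longer called, and S100a11 (-0.28) and Smarce1 (-0.29), not called before, passed as lower. Fkbp10, Dcn and Smarce1 were named for this. Under library totals, log2 fold changes were 1.25 for Krt18, 2.67 for Krt19 and -0.88 for Krt80, 2952 genes rose, 5 S100 genes fell and 2 epithelial transcription factors rose; that scaling moves the median of all genes. Without the filter, 3 other keratins rose and 2 fell, 16 cornified genes and 10 macrophage markers rose and 5 epithelial transcription factors fell, since more genes were tested. In DESeq2, 0 other keratins fell at the adjusted threshold, with Krt10 at an unadjusted p of 0.074, and 2 mesenchymal repressors fell; the cause was not tested. With each library left out in turn, the fallen other keratins numbered 0 to 2, the risen epithelial transcription factors 2 to 4, the fallen mesenchymal repressors 2 to 4 and the risen endothelial markers 1 to 2. Log2 fold changes then ran from 6.50 to 6.98 for Crct1, 2.90 to 3.07 for Krt19, 1.37 to 1.69 for Krt18, -2.65 to -2.19 for Krt7 and -0.68 to -0.42 for Krt80.

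Deviations from the group means correlated at 0.051, -0.010 and 0.058 for samples that share the replicate numbers 1, 2 and 3. Samples with different numbers gave -0.101 to 0.056. No pairing was seen, but 3 libraries per group cannot exclude it. With the number as a replicate block, 5124 genes rose and 5281 fell, against 5158 and 5316 without it, and Krt7, Krt18, Krt19, Krt80 and Crct1 had -2.40, 1.53, 2.95, -0.58 and 6.79. Depth limits Krt8 and the other keratins most: at a few counts per library, only large differences could be seen.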

Other observations

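Regulators of epithelial genes were also read. Of 24 epithelial transcription factors, 8 were tested, 4 rose and 3 fell in edgeR's quasi-likelihood test, with a median log2 fold change of 0.33. Over all tested genes 36.7% rose and 37.8% fell. Tfap2a, an AP-2 factor gene, rose by 1.86 and Sox9 by 1.40, while Gata3 fell by 1.29 and Klf4 by 1.20 on the log2 scale. Under library totals, or without quiescent replicate 2, 2 of them rose. Trp63, the master regulator of stratified epithelia, had no count in the senescent libraries, against 9, 9 and 6 counts in the quiescent libraries, and was not tested; it was picked after its values were seen. Grhl2, picked in the same way, had at most 4 counts in any library.

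Of 10 transcription factors that hold epithelial genes down in mesenchymal cells, 5 rose and 4 fell, with a median of 0.41. The shares over all tested genes were 36.7% and 37.8%. Foxc2 rose by 1.60 and Prrx1, a fibroblast factor, by 1.26, while Snai2 fell by 1.18 and Tcf4 by 1.03. With quiescent replicate 3 or senescent replicate 1 left out, 2 fell.

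Of 11 tested S100 genes, which encode calcium-binding proteins and in part neighbour the cornified genes, 5 rose and 3 fell. S100a3 rose by 1.72 and S100b by 1.21, while S100a16 fell by 0.44 and S100a1 by 0.43 on the log2 scale. S100a8, an alarmin gene, had 57, 58 and 89 counts in senescent libraries, against 2, 1 and 1 counts in quiescent libraries. It too was picked after its values were seen. It passed the filter through the senescent libraries alone, so the 5 risen genes are not read against all genes.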
